A study of Amphimedon queenslandica with 144 samples.

Results

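In single larvae of the sponge Amphimedon queenslandica, 104 of the 47411 counted features behaved like switches: a larva held clearly many copies of the transcript or almost none, and few larvae lay in between. The 104 transcripts were chosen from the counts of the swimming larvae, 13 groups of 9. Each count was given as a share of the larva's total, in counts per 1000000 (CPM). A feature was kept when it was below 1 CPM in at least 15% of the larvae (18 or more), at 20 CPM or more in at least 15% of them, and from 2 to under 10 CPM in fewer than 10% (at most 11). Of the 7752 features that met the second limit, 276 also met the first, and 104 of those 276 (37.7%) also met the third. Below, a transcript is called off in an animal under 2 CPM, on at 10 CPM or more, and in between otherwise. The spread of larvae over these states chose the transcripts, so it is described and not tested.

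Amphimedon queenslandica is a coral reef demosponge that broods its embryos inside the adult. The ciliated, non-feeding larvae swim, gain the ability to settle over the hours after they emerge, attach when they meet a suitable surface such as a coralline alga, and then metamorphose into a juvenile. Measuring each animal by itself shows whether a transcript is at a middle level in all animals or at a high level in some and missing in others, which a pool of larvae cannot show. Identifiers beginning Aqu2.1 stood for 95 of the 104 transcripts, and identifiers beginning TCONS for the other 9. TCONS identifiers thus made up 8.65% of the on/off transcripts and 1.15% of the 7752 features that reached 20 CPM as often. Their share among the 276 of these features that were also below 1 CPM in at least 15% of larvae is not given here. Whether the difference goes with the on/off states was therefore not tested. The files pair these identifiers with no gene name, so no role is given for them, and no sequence was used here.

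The 144 animals were each sequenced as a library of their own. Single larvae were kept for 2 h with a piece of the jointed coralline alga Amphiroa fragilissima, with a piece of the crust-forming coralline alga Mesophyllum sp., or in filtered seawater alone. They were collected still swimming 3.5, 5, 7 and 10 h after emergence, 9 in each of these 12 groups. A further 9 swimming larvae were collected 0.5 h after emergence and met no cue. Settled post-larvae, which had attached and held on when the plate was swirled, came from the algae only: 6 on A. fragilissima at 7 h, 7 on A. fragilissima at 10 h, and 7 on Mesophyllum sp. at each of these ages. The labels do not say which adult any larva came from, nor how many adults were used.

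The labels name 3 library batches (T, K, C), each of 48 animals; C held all but 2 of the 27 settled animals. An animal's total was 541737 to 4692279 counts (median 2011368.5). In the larva of median depth 1 CPM stood for 2.01 counts and 20 CPM for 40.2 counts; in the shallowest larva they stood for 0.542 and 10.8 counts. The 104 transcripts together held 0.256% of all counts. The highest count of any of them in an animal was 5549.

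Few values lay in between the states, as the rule required. Over the 104 transcripts and all swimming larvae there were 12168 values, of which 49.7% were off, 45.9% on and 4.44% in between. Of the off values, 68.0% were a count of 0. A transcript was on in 20 to 95 larvae (median 52) and off in 20 to 96 (median 59). Its median level in the larvae where it was on ran from 17.4 to 251 CPM over the transcripts, with a median of 35.8. Divided by the transcript's mean level where it was off, that median was 40 to 1032 times higher, with a median ratio of 190.

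In 11 transcripts no larva at all lay in between. Aqu2.1.19929_001 was the tightest of all 104 when on: it was on in 38 larvae, at 87.7 to 252 CPM (median 136), and off in 79, where its highest level was 1.60 CPM. Aqu2.1.43252_001 was on in 61 larvae at 43.6 to 297 CPM and off in 56 at up to 1.88 CPM. Aqu2.1.01786_001 was on in 56 at 24.3 to 217 CPM and off in 61 at no more than 1.39 CPM. In each of these the lowest larva that had the transcript stood more than 10 CPM above the highest that lacked it. Aqu2.1.43464_001 was at a count of 0 in 78 of the 82 larvae where it was off and at 11.2 to 62.7 CPM in the other 35. The remaining 7 with an empty middle were Aqu2.1.16479_001, Aqu2.1.20918_001, Aqu2.1.24131_001, Aqu2.1.28758_001, TCONS_00000541, TCONS_00000555 and TCONS_00003257.

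The 5 transcripts with the highest levels when on were Aqu2.1.20954_001, with a median of 251 CPM in 50 larvae, Aqu2.1.08499_001 (157 CPM, 52 larvae), Aqu2.1.30057_001 (145 CPM, 85 larvae), Aqu2.1.03895_001 (144 CPM, 55 larvae) and Aqu2.1.19929_001. Their bands differed in width. Aqu2.1.20954_001 ran from 10.9 to 481 CPM where it was on, with 11 larvae in between, while Aqu2.1.30057_001 ran from 30.3 to 352 CPM with 1 larva in between. The transcripts whose share of all larvae on was nearest to 50% were Aqu2.1.06827_001 and Aqu2.1.12881_001, each on in 57 larvae, and Aqu2.1.13946_001, on in 60. Aqu2.1.06827_001 had no clear upper band, running from 10.5 to 565 CPM with a coefficient of variation of 119%.

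**Figure D1:**
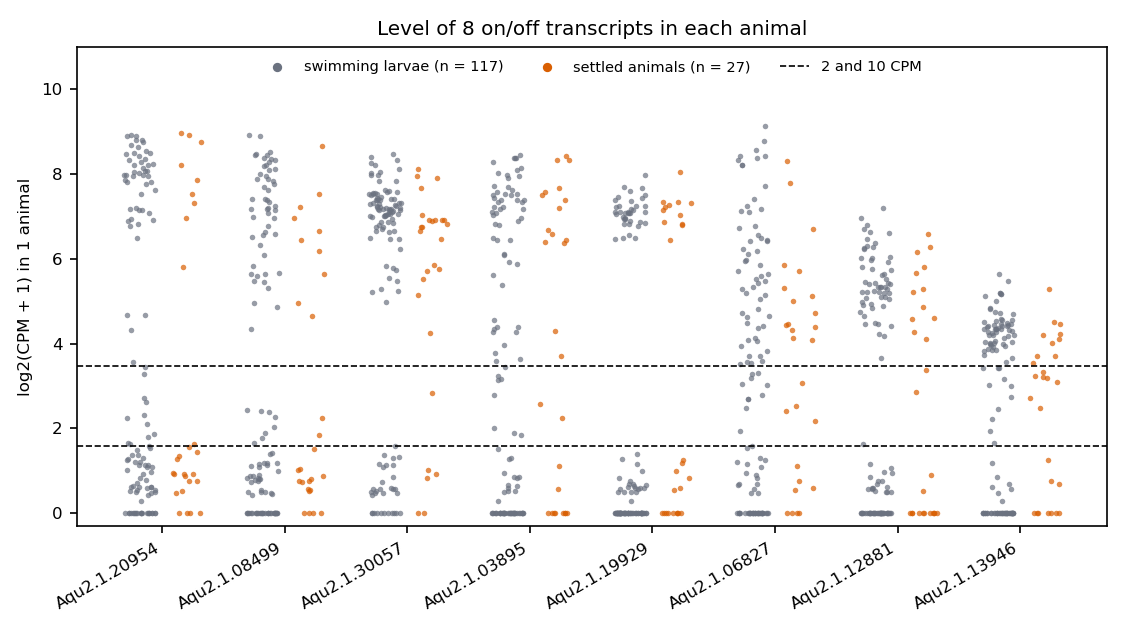
Each point is 1 animal and the vertical axis is log2(CPM + 1); the 5 transcripts with the highest level when on come first, then the 3 with a share of larvae on nearest to 50%, with swimming larvae in grey, settled animals in orange and dashed lines at 2 and 10 CPM. Identifiers are drawn without the ending _001. Aqu2.1.19929 shows no animal of either kind between the lines, whereas Aqu2.1.06827 shows 10 larvae and 4 settled animals there.

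Among larvae that had a transcript, its coefficient of variation had a median of 50.2% over the 104 transcripts and ran from 24.7% to 157%.

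The limits of the rule had close neighbours. Aqu2.1.15171_001 was below 1 CPM in 18 larvae and was kept, while Aqu2.1.15172_001, with 16, and Aqu2.1.17910_001, with 17, were not. Aqu2.1.16238_001 reached 20 CPM in 18 larvae and was kept, and Aqu2.1.12774_001, at 20 CPM or more in 17, was left out although only 2 larvae lay in between. Aqu2.1.08233_001 and Aqu2.1.10155_001 had 11 larvae in between, and Aqu2.1.05318_001 and Aqu2.1.11225_001 had 12. In all, 9 of the 104 stood at the last limit, and 58 had 5 or fewer larvae in between.

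On and off larvae were found side by side within the study's groups. Of the 104 transcripts, 64 had at least 1 larva on and 1 off in each of the 13 swimming groups, and every transcript did so in at least 9 of the 13. A larva had 37 to 64 of the 104 on (median 48), with a mean of 47.7 ± 4.79 (SD over larvae). Group medians ran from 43 in seawater at 10 h to 50 with Mesophyllum sp. at 5 h. Single larvae ran from 37 to 54 in the former group and from 43 to 53 in the latter. The lowest median was not within the range of every group. The fewest on in any larva was 44 with A. fragilissima at 5 h and at 10 h, and 46 with Mesophyllum sp. at 7 h.

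No relation between the number on per larva and depth passed the threshold. Over all swimming larvae Pearson's r with the total count was -0.09 and Spearman's rho -0.07 (permutation test, two-sided, adjusted p over 10 relations 0.624 and 0.773). Without the 2 larvae whose totals were farthest from the median, r was -0.01. Within batches r was -0.28 in T (46 larvae), -0.04 in K (48) and 0.44 in C (23). The value in C had a permutation p of 0.0326 and an adjusted p of 0.324.

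**Figure D2:**
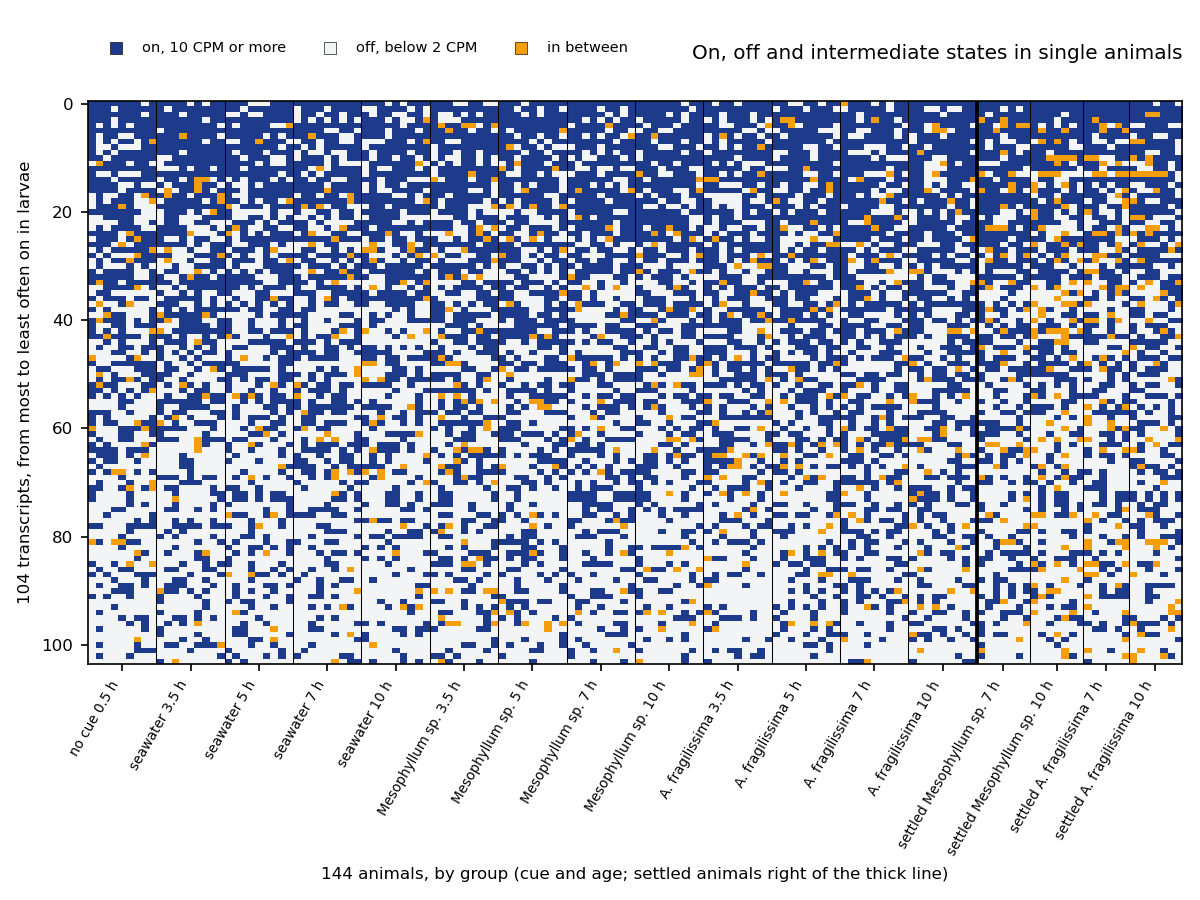
Each cell is 1 transcript (vertical axis, from the most to the least often on in larvae) in 1 animal (horizontal axis, by cue and age); dark blue is on at 10 CPM or more, pale grey off below 2 CPM and orange in between. Blue and grey cells alternate within every group, and orange cells are denser among the 27 settled animals right of the thick line, 9.90% of values against 4.44% in larvae. The rule that chose the transcripts limited orange cells in larvae only.

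The 27 settled animals took no part in choosing the transcripts, and nearly all of the transcripts were on in some of these animals and off in others. At least 1 settled animal was on and at least 1 off for 103 of the 104. The exception was Aqu2.1.08859_001, which was on in 22, in between in 5 and off in none, after being off in 26 larvae. Of 2808 values in settled animals, 48.1% were off, 42% on and 9.90% in between. A settled animal had 34 to 58 transcripts on (median 44; 43.6 ± 5.73, SD, n = 27) and 4 to 22 in between (median 10), against 1 to 10 in between in a larva (median 4). In batch C alone the median number in between was 10 in 25 settled animals and 5 in 23 larvae. Depth was similar, with a median total of 2050352 in settled animals and 2008228 in larvae. The rule held down the number of larvae in between and set no such limit on settled animals. The part of this selection in the difference was not tested.

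The empty middle recurred in settled animals more often for these transcripts than for others with the same extremes. In the settled animals 220 features were below 1 CPM in at least 15% and at 20 CPM or more in at least 15%. Of these 220, 64 belonged to the 104, and 44 of the 64 (68.8%) had fewer than 10% of settled animals in between. Of the other 156, 33 (21.2%) did. Put the other way, 77 features met all 3 limits in settled animals, 44 of them from the 104.

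How often a transcript was on was alike in larvae and settled animals. Over the 104 transcripts the share of larvae on and the share of settled animals on had a correlation of 0.78, which describes transcripts measured in the same libraries and is not a test. The median change in that share was -2.71 percentage points. Aqu2.1.11673_001 fell most: it was on in 82 larvae (70.1%) and in 3 of 27 settled animals (11.1%), of which 14 were in between and 10 off. Its median over the 36 larvae that still swam with these algae at 7 and 10 h was 13.2 CPM (range 0 to 37.5), and over the settled animals 4.60 CPM (range 0 to 30.2). The other large falls were Aqu2.1.41235_001, from 63 larvae to 7 settled animals, and Aqu2.1.27619_001, from 71 larvae to 9. Aqu2.1.40401_001 rose most, from 64 larvae (54.7%) to 21 settled animals (77.8%), followed by Aqu2.1.22367_001, from 26 to 11, and Aqu2.1.16479_001, from 28 to 11. Where Aqu2.1.40401_001 was on, its median was 91.5 CPM in larvae and 38.7 CPM in settled animals. In settled animals it had a median of 25 CPM over all 27 and a highest value of 2584 CPM, where its highest larva had 278 CPM.

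**Figure D3:**
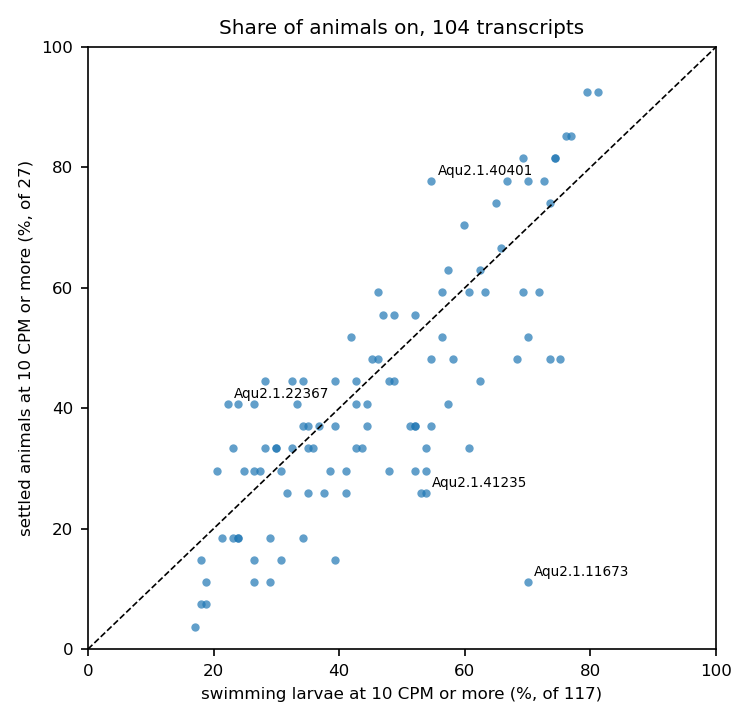
Each point is 1 of the 104 transcripts, placed by the share of the swimming larvae (horizontal axis) and of the 27 settled animals (vertical axis) in which it was at 10 CPM or more; the dashed line marks equal shares. Points scatter around the line (r = 0.78), with Aqu2.1.11673 far below it at 70.1% and 11.1%.

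A test over all features, Fisher's exact test of animals on against animals not on (off or in between) in the 27 settled animals and those 36 larvae, called 4 of the 104 at an adjusted p below 0.05, against 7.58% of the 14950 features tested. Aqu2.1.11673_001 (adjusted p 9.83e-04), Aqu2.1.23805_001 (0.00816) and Aqu2.1.14766_001 (0.0282) were on less often in settled animals; for the first, 14 of the 24 settled animals not on were in between. Aqu2.1.40401_001 was on more often (0.0348), in 21 of 27 settled animals against 14 of the 36 larvae, while edgeR's test of its counts did not pass the threshold. A share of 4 in 104 was below that of all features.

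Whether a transcript was on said little about most of the others. Over the 5356 pairs of the 104 transcripts, the phi coefficient, which is 1 when 2 transcripts are always on in the same larvae and -1 when they are never in the same state, had a median of -0.0016, and 97.7% of pairs lay between -0.3 and 0.3. Animals in which either transcript was in between were left out of each phi. Only 3 pairs reached 0.8.

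Aqu2.1.11673_001 and Aqu2.1.31706_001 were on together in 82 larvae, off together in 29 and never in opposite states. Aqu2.1.06905_001 and Aqu2.1.19222_001 were on together in 62, off together in 40 and never apart. Aqu2.1.12991_001 and Aqu2.1.12994_001 were on together in 36 and off together in 69, and 3 larvae had 1 without the other. The first 2 pairs have identifier numbers far apart, and the third has numbers 3 apart. In settled animals, which had not been used to find them, the second pair was on together in 13, off together in 7 and never apart, and the third was on together in 11, off together in 15 and never apart. The first pair was on together in 3 settled animals and off together in 7, and in 3 more Aqu2.1.31706_001 alone was on (phi 0.59). Aqu2.1.31706_001 was on in 20 of the 27 settled animals, so that in most of these its partner lay in between rather than off.

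Shared presence did not always go with a shared level. Across the larvae in which both were on, the log2 levels of Aqu2.1.11673_001 and Aqu2.1.31706_001 had a correlation of 0.58. That of Aqu2.1.06905_001 and Aqu2.1.19222_001 was 0.15, and that of Aqu2.1.12991_001 and Aqu2.1.12994_001 was 0.12. In settled animals with both on, the correlation was 0.57 for the second pair (13 animals) and 0.36 for the third (11 animals). The first pair was on together in too few settled animals for a value. The ratio of the last pair ran from 0.24 to 13.6, with a median of 4.03 in larvae and 1.33 in settled animals.

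Of the looser pairs, some were nested. Aqu2.1.06990_001 was never on without Aqu2.1.12475_001: both were on in 40 larvae, Aqu2.1.12475_001 alone in 35 and neither in 31. In settled animals both were on in 10, Aqu2.1.12475_001 alone in 7 and neither in 6. Aqu2.1.16238_001 was on in 18 larvae with Aqu2.1.16454_001 and in 1 without it, while Aqu2.1.16454_001 was on alone in 13 (phi 0.68, and 0.79 in settled animals). Aqu2.1.04853_001 and Aqu2.1.25550_001 were not nested: both were on in 19 larvae, the former alone in 12 and the latter alone in 8 (phi 0.53, and 0.28 in settled animals).

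No pair among the 104 had a phi of -0.6 or below. Where both transcripts of a pair are on in a small share of larvae, phi cannot fall that low. This holds even if they are never on together. The limit therefore does not show whether any such pair was mutually exclusive, and the number of pairs never on together is not given here. The lowest phi was -0.49, for Aqu2.1.08233_001 and Aqu2.1.41235_001. These were on together in 4 larvae, in opposite states in 24 and 53, and off together in 23. Next came Aqu2.1.04991_001 with Aqu2.1.10709_001 and Aqu2.1.12484_001 with Aqu2.1.20918_001, each at -0.48, Aqu2.1.16454_001 with Aqu2.1.33696_001 at -0.44, and Aqu2.1.19718_001 with Aqu2.1.23805_001 at -0.42. In settled animals these 5 pairs had phi values from -0.18 to -0.07.

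**Figure D4:**
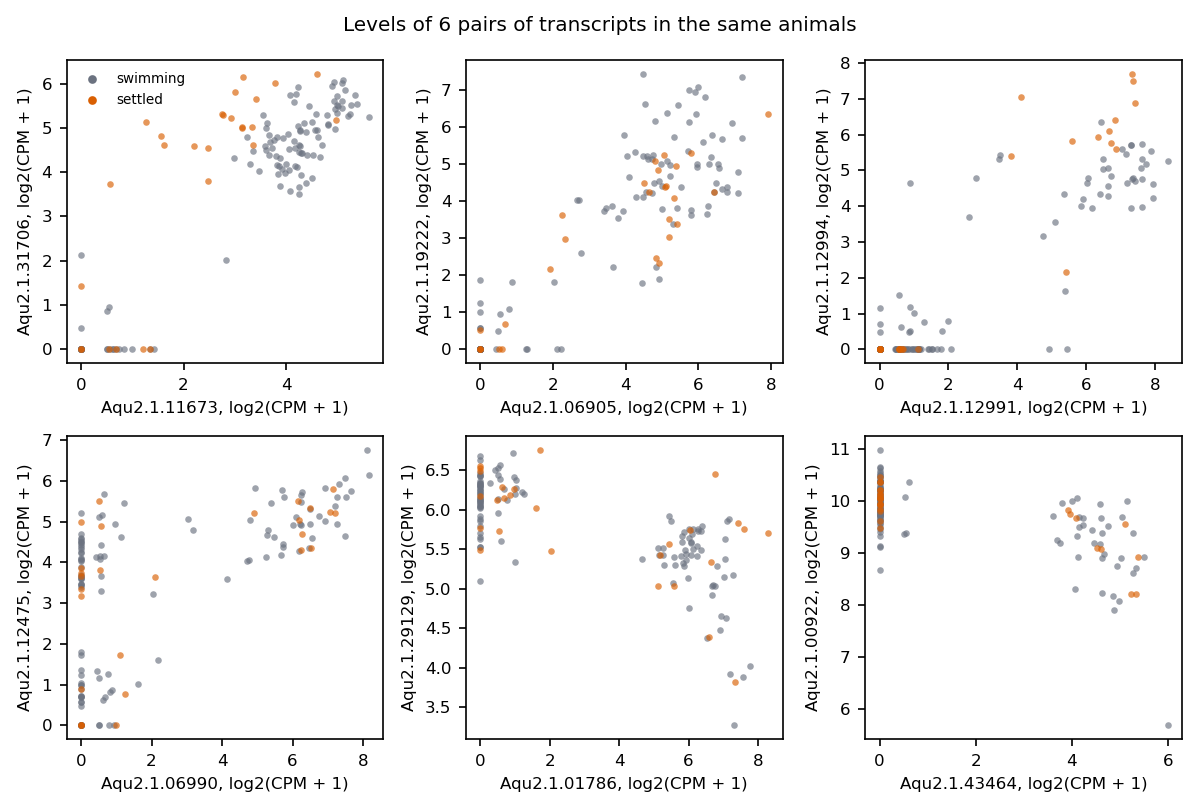
Each panel plots 2 transcripts against each other on log2(CPM + 1) axes, 1 point per animal, with swimming larvae in grey and settled animals in orange. The upper row shows the 3 pairs that were on and off together; below them are the nested pair Aqu2.1.06990 and Aqu2.1.12475 and 2 pairs in which the second transcript was lower where the first was on.

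The same question was asked of all features rather than of the 104 alone, with the Pearson correlation of log2(CPM + 1) over the swimming larvae, for the 19190 features at 1 CPM or more in at least 15% of larvae. Partners chosen as the highest of so many values have a high r by choice, so the 27 settled animals, which did not choose them, are given beside it. A partner at r of 0.7 or more existed for 39 of the 104 transcripts, and at 0.9 or more for 13. The share of the other compared features with such a partner is not given here. These counts therefore do not show whether the 104 have partners more often than other features. For the 39, r in settled animals had a median of 0.88 and ran from 0.44 to 0.98, and 38 were at 0.5 or more. For all 39, r was also at 0.7 or more within the larvae of batch T and within those of batch K. Those larvae were among the ones that chose the partners, so these values are not independent of the choice.

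Some partners had a median below 1 CPM in larvae where the transcript was off. Aqu2.1.12476_001 went with Aqu2.1.06990_001 at r = 0.97 (0.96 in settled animals), with a median of 15.7 CPM where Aqu2.1.06990_001 was on and 0 CPM where it was off. Aqu2.1.14250_001 went with Aqu2.1.21122_001 at 0.95 (0.95), at a median of 96.9 CPM (19.3 to 269) in the 22 larvae with it on against 0.40 CPM (0 to 3.82) in the 92 with it off. Aqu2.1.12324_001 went with Aqu2.1.22008_001 at 0.95 (0.88) and TCONS_00002845 with Aqu2.1.33696_001 at 0.95 (0.92). Other partners were present in every larva and rose further where the transcript was on. Aqu2.1.42087_001 had a median of 252 CPM in larvae with Aqu2.1.42086_001 on and 56.5 CPM in larvae with it off (r = 0.80, and 0.80 in settled animals). Aqu2.1.21164_001 had 143 and 71.9 CPM where Aqu2.1.21163_001 was on and off (r = 0.86, and 0.65 in settled animals).

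Joined at r of 0.8 or more, 32 of the 104 fell into 29 sets with 68 features in all. The largest held 7: Aqu2.1.11673_001, Aqu2.1.31706_001 and 5 features outside the 104, namely Aqu2.1.19382_001, Aqu2.1.28253_001, Aqu2.1.31682_001, Aqu2.1.31694_001 and TCONS_00000843. Among Aqu2.1.11673_001, Aqu2.1.19382_001, Aqu2.1.31694_001 and Aqu2.1.31706_001, r in larvae was 0.91 to 0.96 and in settled animals 0.80 to 0.96. A set of 4 held Aqu2.1.12484_001, Aqu2.1.11949_001, TCONS_00000267 and TCONS_00004870.

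Partners often carried the next identifier number. Of the 39 partners, 14 had a number 1 away from the transcript's own. From the side of the numbers, the 104 formed 103 pairs with a compared feature 1 away, and in 19 of them (18.4%) r was 0.7 or more, against 130 of 11679 (1.11%) pairs of other features 1 apart. At 2 apart the shares were 2.27% and 0.611%, and at 5 apart 0 of 78 and 0.123%. The other features were not matched to the 104 in level or in spread between larvae, and the 104 were chosen for a wide spread. These 19 pairs involved 17 of the 104 transcripts. In settled animals r over the 19 ran from 0.59 to 0.98, with a median of 0.88. Examples are Aqu2.1.28758_001 with Aqu2.1.28759_001 (r = 0.96), Aqu2.1.14181_001 with Aqu2.1.14180_001 (0.93), Aqu2.1.20606_001 with Aqu2.1.20605_001 (0.93) and Aqu2.1.26790_001 with Aqu2.1.26789_001 (0.92). The members of the other kind of pair, 1 apart yet opposed, were few, the lowest being Aqu2.1.27619_001 with Aqu2.1.27618_001 at -0.52 (-0.18 in settled animals). No 2 of the 104 had numbers 1 apart, and the closest were Aqu2.1.12991_001 and Aqu2.1.12994_001. Identifier numbers are not positions, and the labels do not tell how reads that fit several gene models were counted, so whether neighbouring numbers share reads was not tested.

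**Figure D5:**
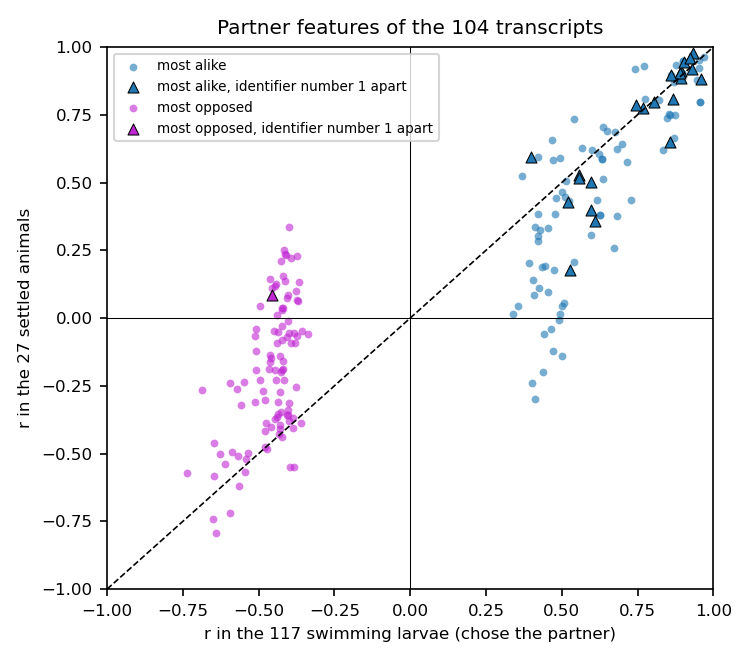
Each of the 104 transcripts gives 2 points, its most alike feature (blue) and its most opposed feature (magenta), placed by r over the swimming larvae, which chose it, and r over the 27 settled animals; triangles mark features with an identifier number 1 away. The 39 alike partners at 0.7 or more in larvae lie between 0.44 and 0.98 in settled animals, and below 0.7 the points spread down to -0.30.

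Certain features were lower in the larvae where an on/off transcript was on. The most opposed feature of a transcript was at r of -0.5 or below for 24 of the 104, and at -0.6 or below for 8. No share of the other features is set beside these counts either. All 24 were also negative in settled animals, with a median of -0.50. None of these 24 most opposed features had an identifier number 1 away, and none belonged to the 104. Aqu2.1.29129_001 had a median of 41.8 CPM (range 8.66 to 59.5) in the 56 larvae with Aqu2.1.01786_001 on and 72.9 CPM (33.4 to 104) in the 61 with it off, a ratio of 1.74 (r = -0.74, and -0.57 in settled animals). These ranges overlapped, and in settled animals the medians were 44.2 and 71.6 CPM.

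Aqu2.1.23943_001 had a median of 26 CPM where Aqu2.1.05665_001 was on and 88.9 CPM where it was off, and in settled animals 45.3 and 165 CPM. Aqu2.1.37720_001 had 10.5 and 35.2 CPM with Aqu2.1.12767_001 on and off, and in settled animals 5.17 and 24.4 CPM. Aqu2.1.00922_001 had 610 and 1038 CPM with Aqu2.1.43464_001 on and off, and in settled animals 548 and 1073 CPM (r = -0.64, and -0.79 in settled animals). In each of these the feature's median was above 0 in both sets of animals, and in larvae it was 1.70 to 3.42 times higher where the switched transcript was off. Aqu2.1.13551_001 was opposed to 2 transcripts that went together: its median was 0 CPM in the 21 larvae with Aqu2.1.16238_001 on, with a highest value of 0.46 CPM, and 9.22 CPM (0 to 51.4) in the 94 with it off.

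A few features with consecutive numbers crossed over; these were picked after their values were seen. Aqu2.1.08233_001 was opposed to Aqu2.1.41234_001 (r = -0.61, and -0.54 in settled animals), and Aqu2.1.41235_001 to Aqu2.1.08234_001 (-0.56 and -0.62). Within each pair of neighbours r was positive, at 0.30 for Aqu2.1.08233_001 with Aqu2.1.08234_001 and 0.60 for Aqu2.1.41234_001 with Aqu2.1.41235_001. Another foursome ran the same way throughout, since Aqu2.1.06989_001, Aqu2.1.06990_001, Aqu2.1.12475_001 and Aqu2.1.12476_001 had r of 0.56 to 0.97 for every pair in larvae and 0.54 to 0.96 in settled animals.

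The study's own comparisons, settlement, age and algal cue, were tested on the counts of all 14950 features with enough counts, by edgeR's quasi-likelihood test with batch as a term and Benjamini-Hochberg adjustment over all of them. All 104 transcripts were among the features tested. The estimates for the 104 were wide. Between settled and swimming animals the standard error of the log2 fold change had a median of 0.77 over the 104. Over the other features it was 0.24. Larvae of 1 group are partly on and partly off, and the part of this in the width was not tested. Counts of calls among the 104 are read against these standard errors and against the share of all features called.

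Settled animals differed from the same 36 larvae in 7 of the 104 (6.73%) at an adjusted p below 0.05, against 34% of all features. Of the 7, 5 rose, where 16.9% of all features did, and 2 fell, where 17.1% did. Aqu2.1.05665_001 had a median of 52.9 CPM in settled animals (0 to 240; 21 of 27 on) and 22.8 CPM in the larvae (0 to 76.7; 23 of 36 on), a log2 fold change of 2.05 (SE 0.57, edgeR adjusted p 0.00240). Off animals remained in both groups, and the ranges overlapped. Aqu2.1.26311_001 had 97.1 CPM (0 to 376; 25 of 27 on) and 54.2 CPM (0 to 155; 32 of 36 on), a log2 fold change of 1.45 (SE 0.50, edgeR adjusted p 0.0164). The share on was higher in settled animals by 0.139 for Aqu2.1.05665_001 and by 0.037 for Aqu2.1.26311_001. Where on, Aqu2.1.05665_001 had a median of 62.8 CPM in settled animals and 27.5 CPM over all swimming larvae. Aqu2.1.26311_001 had 111 and 55.2 CPM. Aqu2.1.04991_001 also rose (1.49, SE 0.55, edgeR adjusted p 0.0259), with medians of 30.1 and 17.4 CPM.

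TCONS_00000938 rose by 2.40 on the log2 scale (SE 0.74, edgeR adjusted p 0.00644), although it was on in 11 of 27 settled animals and 14 of 36 larvae; its highest values were 280 and 70.1 CPM. For Aqu2.1.06990_001 the log2 fold change was 2.64 (SE 1.00, edgeR adjusted p 0.0299), yet it was on in 10 of 27 settled animals and 15 of 36 larvae. It was on in 5 of 23 larvae of batch C, where nearly all settled animals were, and in 21 of 46 of batch T. Without the batch term its log2 fold change was 0.94 (edgeR adjusted p 0.360). Aqu2.1.22008_001 fell by 3.49 on the log2 scale (SE 1.26, edgeR adjusted p 0.0228): it was on in 8 of 36 larvae and in 1 of 27 settled animals. Aqu2.1.29398_001 fell by 2.32 (SE 0.87, edgeR adjusted p 0.0291), from 13 of 36 larvae on to 4 of 27. Within batch C, with 25 settled animals, edgeR called 2 of the 104, against 17.4% of all features, and Aqu2.1.05665_001 was among them (log2 fold change 2.42, adjusted p 0.0469).

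Age in larvae that met no alga, tested over the larvae of 0.5 h and the 4 seawater groups, changed 5 of the 104 (edgeR), against 15.2% of all features. These were Aqu2.1.33560_001 (edgeR adjusted p 0.00114), Aqu2.1.30516_001 (0.00630), Aqu2.1.12881_001 (0.0179), TCONS_00005055 (0.0282) and Aqu2.1.10709_001 (0.0305). Several were off in every larva of 1 or more ages. Aqu2.1.12881_001 was on in 3, 5, 5, 7 and 0 of 9 larvae at 0.5, 3.5, 5, 7 and 10 h, and its highest larva at 10 h had 0.518 CPM. Aqu2.1.30516_001 was on in 2, 0, 4, 5 and 0 of 9 at the same ages, and Aqu2.1.33560_001 in 0, 2, 4, 0 and 2 of 9. Aqu2.1.10709_001 was on in 7, 5, 4, 0 and 2 of 9. None of these 4 moved 1 way over the ages.

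Between 10 h and 3.5 h in seawater 4 of the 104 (3.85%) fell (edgeR), near the 4.03% of all features that did. None of the 104 rose, where 584 of 14950 features did. Of those that fell, Aqu2.1.26418_001 and Aqu2.1.08233_001 did not pass the test over all ages above (edgeR adjusted p 0.0530 and 0.0525). Aqu2.1.26418_001 was on in 5 of 9 larvae at 3.5 h and in none at 10 h, TCONS_00005055 in 4 and none, Aqu2.1.08233_001 in 4 and none, and Aqu2.1.12881_001 as above. With no larva on at 10 h, a fitted fold change has no fixed size and is not given.

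Few of these transcripts were called for either algal cue. The median standard error of the log2 fold change was 0.63 for A. fragilissima and 0.68 for Mesophyllum sp. over the 104. Over the other features it was 0.19 and 0.21, so few calls do not show few changes. Larvae with A. fragilissima differed from larvae in seawater, over the 4 ages, in 2 of the 104 (edgeR), against 5.5% of all features. Aqu2.1.10709_001 was on in 20 of 36 larvae with the alga (median 24.9 CPM) and 11 of 36 in seawater (median 0.519 CPM), a log2 fold change of 2.49 (SE 0.67, edgeR adjusted p 0.0110). TCONS_00000986 was on in 14 and 7 of 36, a log2 fold change of 2.44 (SE 0.80, edgeR adjusted p 0.0498). Within batch T its log2 fold change was -0.09 and within batch K 6.31 (edgeR adjusted p 1.00 and 0.00559). Larvae with Mesophyllum sp. differed from the same seawater larvae in 1 of the 104, Aqu2.1.30516_001, against 0.214% of all features. It was on in 14 of 36 larvae with the alga, at up to 341 CPM, and in 9 of 36 in seawater, at up to 39.1 CPM, and its log2 fold change was 3.46 (SE 0.75, edgeR adjusted p 0.0157).

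Across all 13 swimming groups 5 of the 104 differed (edgeR), against 28.3% of all features: Aqu2.1.26418_001 (edgeR adjusted p 1.45e-04), Aqu2.1.33560_001 (4.16e-04), Aqu2.1.30516_001 (0.00211), Aqu2.1.20087_001 (0.00229) and Aqu2.1.08233_001 (0.00433). Aqu2.1.20087_001 was at a count of 0 in all 9 larvae of 0.5 h and on in 9 of 36 seawater larvae.

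Larvae of batches K and T did not differ past the threshold in any of the 104 by edgeR, against 13.6% of all features. DESeq2 called 0 too, against 16% of all features. At an unadjusted p below 0.05 edgeR had 6 of the 104, against 3886 of all 14950 features. The effect of settlement did not differ between the algae past the threshold in any of the 104 by edgeR, against 0.0201% of all features. For this effect, edgeR had 9 of the 104 at an unadjusted p below 0.05, against 1098 of all 14950 features. By DESeq2 2 passed, against 0.1% of all features: Aqu2.1.11558_001 and Aqu2.1.26418_001, named after their values were seen.

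Pairs of larvae were compared by the share of the 104 transcripts in the same state, leaving out those in between. Over the 6786 pairs the share had a median of 55.9% and ran from 32.6% to 87.1%. It was 56.4% in the median pair from the same group and 55.9% in pairs from different groups, and 56.1% and 55.8% in pairs from the same and from different batches. In 16 pairs, made up of 18 larvae, the share was 80% or more, and 2 of these pairs came from the same group. The most alike larvae were seawater 3.5 h replicate 7, of batch K, and A. fragilissima 5 h replicate 13, of batch C, which were in the same state for 87.1% of 93 transcripts. These 2 larvae, A. fragilissima 5 h replicate 6, Mesophyllum sp. 3.5 h replicate 4, Mesophyllum sp. 5 h replicate 4 and seawater 5 h replicate 4 formed 10 of the 16 pairs among themselves. They came from 5 groups and all 3 batches, and their 15 pairs were in the same state for at least 73.2% of transcripts. The larvae of Mesophyllum sp. 3.5 h, Mesophyllum sp. 5 h and seawater 5 h in this set were all replicate 4 of batch T. The first of them was the shallowest larva of all (541737 counts), where off is least certain, and without it 7 of the 10 pairs were left. In their levels of all features the most alike pair ranked 29 among the 6786 pairs.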

How the data were processed

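The deposited file is a table of integer counts for 47411 features and 144 animals. Per the labels, the authors prepared CEL-Seq2 libraries, in which barcoded 3' ends of polyadenylated RNA are counted, ran the public CEL-Seq pipeline, and counted reads on Aqu2.1 gene models. Aligner, genome build and the treatment of ambiguous reads: not given in the sources used here. Replicates are separate animals.

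CPM was computed from column totals, with no other scaling. Correlations used log2(CPM + 1). Counts were tested with edgeR 4.0.16 in R 4.3.3: features kept by its expression filter, TMM scaling, all 17 groups and batch in 1 model, quasi-likelihood tests, Benjamini-Hochberg adjustment over 14950 features, threshold 0.05. A standard error is the log2 fold change over the root of its F statistic. Animals at 10 CPM or more against below 10 CPM were tested with Fisher's exact test (SciPy 1.17.1). The edgeR and selection code was tested on simulated data. DESeq2 1.42.0 was an alternative, and others varied scaling, the filter, the batch term, the groups fitted, a replicate block, depth as a covariate and the rule's limits.

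The 104 transcripts, the comparisons and the naming rule were chosen with earlier results of these data known. Named were the 5 highest when on, pairs with the highest and lowest phi, called transcripts (up to 3 each way, or the 3 lowest p), the 3 largest rises and falls in share on, the nearest to each limit and to 50% of larvae on. Comparisons with all 19190 features, larva pairs, and names outside that rule were added after seeing the data.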

Additional observations from a re-analysis of the deposited data

Results flagged for a closer look

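In the group of swimming larvae kept in seawater and collected at 3.5 h, replicate 5 stood apart from the other 8: 9 of the 104 transcripts were in between the states, where the others had 2 to 5. That larva also had the lowest total of its group, 1444332 counts, against 1927120 to 2988300 in the others; the part of depth in this was not tested. It was the only such animal in 34 tests of groups, over the numbers of transcripts on and in between, and chance marks about 1 group in 20.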

How the results depend on the processing

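The number of switched transcripts depended on the limits. It was 58 with fewer than 5% of larvae in between and 57 with 40 CPM as the on level; TMM scaling gave 104, of which 99 were shared, and larvae of batch T and batch K alone gave 124 and 103, of which 92 and 80 were shared. Counting identifiers up to 5 apart as neighbours gave 1 pair in place of 0. Within batch C the correlation of transcripts on with depth was 0.44, opposite in sign to -0.09 over all larvae.

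Called transcripts changed with the fit, with the share of all features called in brackets. Settlement gave 2 without the low-count filter (12.3%), 0 within batch T (6.15%), 2 within batch C (17.4%) and 4 by Fisher's test of on against not on (7.58%), in place of 7. Age gave 3 without the filter (5.42%) and 1 within batch T (2.98%), in place of 5. The A. fragilissima contrast gave 1 with DESeq2 (6.67%), without the filter (1.78%), without the batch term (5.24%) and with only the compared groups (9.89%), 0 within batch T (1.10%), 6 within batch K (6.90%) and 0 by Fisher's test (0.0268%), in place of 2. The Mesophyllum sp. contrast gave 2 with only the compared groups (0.222%) and 0 within batch T (0.0199%), within batch K (0.470%) and by Fisher's test (0%), in place of 1. The 13 groups gave 2 with DESeq2 (32.3%), 1 within batch T (7.94%), 8 within batch K (20.7%) and 0 within batch C (1.48%), in place of 5. The interaction of settlement and alga gave 2 with DESeq2 (0.1%), in place of 0. Beyond fewer animals within a batch, the causes were not tested.

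The labels number the replicates, and many of the numbers recur in several groups. Over 868 pairs of same-numbered animals from different groups, the median correlation of deviations from group means was -0.01, against -0.01 over 8882 other pairs. These medians do not show whether some same-numbered animals deviated together. With a replicate block the calls were 2 for settlement (19.3%), 11 for age (14.5%), 0 for Mesophyllum sp. (0.0669%) and 12 for the 13 groups (25.4%).

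Of 136 alternative values of the 14 named test results, 85 kept the direction and the call, 49 lost the call and 2 turned: Aqu2.1.06990_001 after settlement had a difference in the share on of -0.0463, and TCONS_00000986 with A. fragilissima had a log2 fold change of -0.0864 within batch T. In the shallowest larva 1 CPM stands for less than 1 count, which limits how firmly off is known there.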
